A study of Homo sapiens with 4 samples.

Results

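The comparison described here is between 2 RNA-seq libraries of cultures labelled OVCAR3, a human ovarian cancer cell line: the HERV-K119 env knockout (KO) and its mock control. Members are the genes with at least 5 CPM (a gene's counts scaled to a fixed library total) in either library, and 11608 of the 52402 gene symbols met this. Per the labels, the env gene of HERV-K119 was knocked out with CRISPR-Cas9 in 1 culture and the other was the control. Both were given hygromycin at 100 μg/mL for 2 days, starting about 18 h after transfection, and total RNA was extracted. The labels do not say whether the knockout cells were 1 clone or a pool. The other 2 libraries of the study, SKOV3 mock and SKOV3 KO, were treated in the same way. Every group held 1 library, so no difference below has a replicate check and no p-value is given. The targeted provirus was not analysed here, so the knockout itself was not checked at the RNA level.

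HERV-K proviruses are remnants of retroviruses that entered the germ line of primate ancestors, and env is the gene of their envelope protein. In several tumour types HERV-K env RNA or protein has been reported above the level of normal tissue. The question of the design is which transcripts differ between cells with and without env.

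A difference is given as a log2 ratio, knockout over mock, of counts scaled by the trimmed mean of M values (TMM) with a prior count of 2. Where a range follows a ratio, it is the exact 95% interval computed from the raw counts with no prior added, and it covers counting error only. A gene is called higher or lower by size, at 2-fold or more. Levels are scaled CPM. The libraries held 16298490 counts (mock) and 15825915 counts (knockout). A count of 0 allows up to 3 counts, or 0.184 and 0.190 CPM before TMM scaling.

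The knockout library differed from mock across much of the transcriptome. Of the 11608 measured genes 1331 were higher (11.5%) and 2148 lower (18.5%), and 47.0% lay within 1.5-fold. In the SKOV3 pair 6 of 10822 genes were higher (0.0554%) and 8 lower (0.0739%), and 98.5% lay within 1.5-fold. The standard deviation of the log2 ratio over genes was 1.10 in OVCAR3 and 0.216 in SKOV3. Among the 10855 measured protein-coding genes 917 were higher (8.45%) and 2121 lower (19.5%), with a median log2 ratio of -0.10. The balance of the directions rests on the scaling: higher genes were 38.3% of the called genes with TMM, 50% when the library size left out mitochondrially encoded rows, and 22.6% when TMM was computed over all symbols without a filter. These scalings moved the median over measured genes from -0.05 to 0.11 and -0.34. Gene groups are therefore read below against the median of protein-coding genes.

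Mitochondrially encoded RNA took a larger share of the knockout library. It made up 5.93% of counts in the mock library (95% interval 5.91 to 5.94) and 21.9% in the knockout library (21.9 to 21.9), against 5.16% and 5.93% in SKOV3 mock and knockout. All 15 measured mitochondrial rows had ratios above 0 and 14 were higher, with a median of 2.14. The large ribosomal RNA RNR2 went from 1.16% to 4.58% of the library and COX1, the catalytic subunit of cytochrome c oxidase, from 0.623% to 3.58%. ND4 (2.30), COX3 (2.14), ATP6 (2.13), COX2 (2.06), ND5 (2.22) and CYTB (1.53), subunits of the respiratory chain and ATP synthase, gained the next largest shares. ND1, a subunit of complex I, had the smallest ratio of the 15, 0.79. Nuclear protein-coding genes took 92.5% of counts in mock and 75.1% in knockout, as shares of a fixed total, and the 10 most abundant rows grew from 6.89% to 20.9%.

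**Figure D1:**
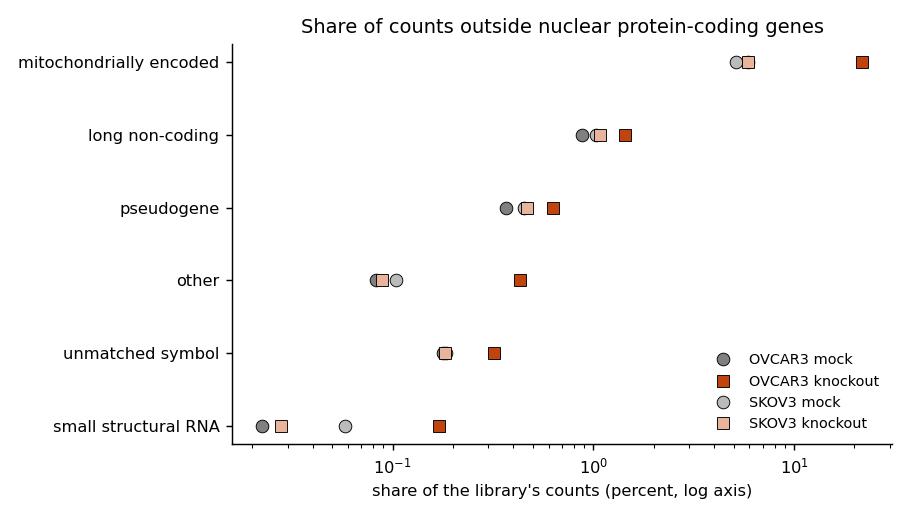
Share of each library's counts (percent, log axis) in gene classes outside nuclear protein-coding genes, for the 2 OVCAR3 and 2 SKOV3 libraries. The OVCAR3 knockout library has the largest share in each class drawn, 21.9% for mitochondrially encoded rows.

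Small structural RNAs, transcribed largely by RNA polymerase III or kept in the nucleus, were higher in the knockout library. All 11 measured rows of this class were higher, with a median of 2.70. Of these, 6 reached 5 CPM in the knockout library alone, and the 5 at that level in both libraries had a median of 2.10. Of a list of 21 abundant nuclear and polymerase III RNAs, 10 were measured and all 10 were higher, 3 of them measured through the knockout library alone. RN7SL1, the RNA of the signal recognition particle, had 1178 counts in mock and 13085 in knockout, or 71.7 and 888 CPM (3.63, 3.54 to 3.72). Its near-identical copy RN7SL2 had 81.7 and 651 CPM (2.99, 2.91 to 3.08), and reads could be divided between the copies. RN7SK, which holds the elongation factor P-TEFb inactive, had 23.6 and 102 CPM, a ratio of 2.10. TERC, the template RNA of telomerase, had 8 and 131 counts. NEAT1, the scaffold RNA of nuclear paraspeckles, had 142 and 1612 CPM (3.50, 3.44 to 3.57), 11.3-fold higher. In SKOV3 RN7SL1, RN7SL2 and NEAT1 had ratios below 0, at -1.34, -1.74 and -0.64. MALAT1, a nuclear long non-coding RNA, had 25.9 and 198 CPM (2.93, 2.79 to 3.09). The row TALAM1, transcribed from the opposite strand of MALAT1, held more counts, 12492 and 67196 (2.58). The strand setting of the counting is not given in the sources used here, so reads of this pair cannot be assigned to either gene.

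Long non-coding RNAs and pseudogenes were above protein-coding genes, and much of this came through the filter. Of 358 measured long non-coding genes 177 were higher and 14 lower (median 0.97), and of 235 pseudogenes 118 were higher and 4 lower (median 1.01). However, 171 of the long non-coding genes and 104 of the pseudogenes reached 5 CPM in the knockout library alone, and such genes had to differ. The 164 long non-coding genes at 5 CPM in both libraries had a median of 0.19 with 24 higher and 8 lower, and the 119 such pseudogenes a median of 0.51 with 26 higher and 0 lower. Among the 6 most abundant genes annotated as long non-coding, which do not include TALAM1, those other than NEAT1 differed by less than 1.5-fold. They are hosts of small nucleolar RNAs and a cytoplasmic RNA that binds PUMILIO proteins: LRRC75A-AS1 had a ratio of 0.31, SNHG16 -0.02, GAS5 0.12, ZFAS1 0.19 and NORAD 0.47. Over 19 measured small nucleolar RNA host genes 3 were higher and 1 lower (median 0.22). Of the 19, 2 reached 5 CPM in the knockout library alone and 1 in the mock library alone. The other 16 had a median of 0.20, with 1 higher and 1 lower. In all 25743 symbols had a count in the knockout library and 21377 in mock, at similar depth. No measured gene had 0 counts in knockout and 3 had 0 counts in mock. CCDC180 was at least 50.9-fold higher, with 0 and 137 counts, against a floor of 3 counts in mock. DYX1C1-CCPG1, a readthrough locus (at least 50.2-fold), and P2RY11, which a readthrough locus overlaps (at least 47.2-fold), are uncertain.

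**Figure D2:**
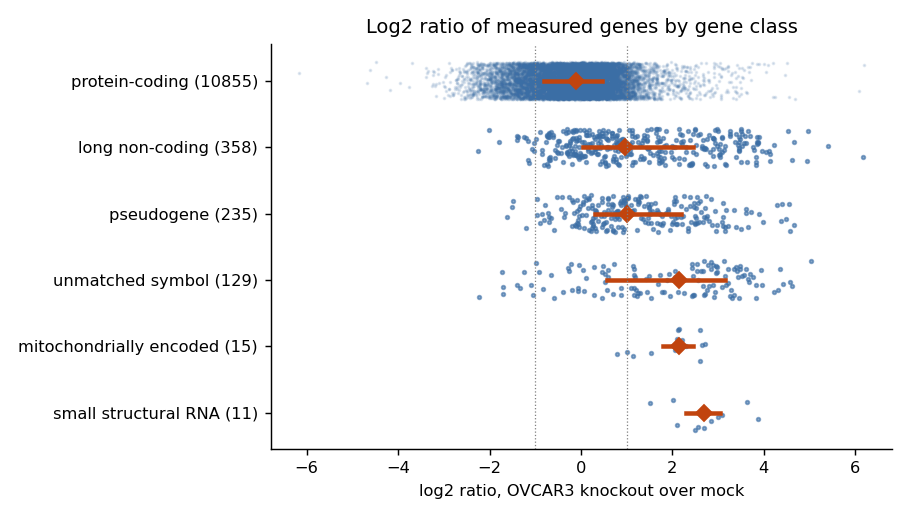
Log2 ratio of each measured gene (points, knockout over mock) by gene class, with the number of genes in brackets, medians (diamonds) and quartiles (bars). Dotted lines mark 2-fold. Protein-coding genes centre near 0 at -0.10, while mitochondrially encoded rows and small structural RNAs lie to the right at medians of 2.14 and 2.70.

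Among protein-coding genes the ratio followed base composition. In 10 groups of 1083 or 1084 genes ordered by GC content of the longest transcript, the median went from 0.52 in the group with a median GC content of 36.8% to -0.91 in the group at 64.1%. In the lowest group 177 genes were higher and 10 lower, and in the highest 68 were higher and 498 lower. Across 10838 genes Spearman's rho with GC content was -0.52 in OVCAR3 and 0.13 in SKOV3, as a description over genes that share the 2 libraries. Transcript length (0.04), gene span (0.09), number of exons (-0.05) and intronic share (0.08) had weak rank correlations, and level had -0.10. In 10 groups by gene span the median was -0.41 in the shortest, whose median GC content was 56.7%. It was 0.04 in group 8, at 44.1%, and -0.14 in the longest, at 44.2%. The lowest of 10 groups by intronic share had a median of -0.37, at 55.5%, and group 7 had 0.02, at 45.1%. Chromosome medians ran from -0.75 on chromosome 19, whose measured genes had a median GC content of 59.4%, to 0.22 on chromosome 4, at 41.9%.

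A spline trend on GC content and length accounted for 23.9% of the variance of the ratio. With it removed, 848 protein-coding genes were higher (7.82%) and 1167 lower (10.8%), of which 580 and 1024 were also called before. The standard deviation went from 0.984 to 0.859, so most of the spread between genes stayed. Ratios with this trend removed are given below as adjusted ratios. They still varied with level (rho -0.25): in 10 groups by level the adjusted median went from 0.23 in the lowest to -0.26 in the highest, so adjusted ratios of abundant genes lie below 0 more often. Whether the trend belongs to the cells or to the preparation of the libraries was not tested.

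**Figure D3:**
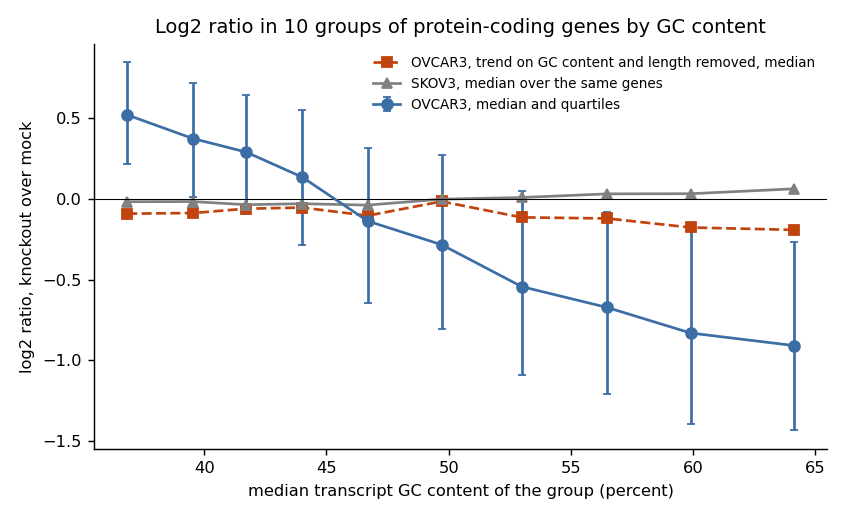
Log2 ratio (knockout over mock) in 10 groups of protein-coding genes by transcript GC content (percent). The OVCAR3 median goes from 0.52 to -0.91 with rising GC content, stays between -0.19 and -0.02 once the trend is removed, and the SKOV3 median over the same genes stays between -0.04 and 0.06.

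Coding genes that lie inside another coding gene stood somewhat apart. The 358 such genes had a median of 0.15, with 14.5% higher and 15.1% lower. The 10497 other coding genes had a median of -0.11, with 8.24% higher and 19.7% lower. Of genes with 1 exon, 9 of 27 inside another gene were higher and 6 lower, and 3 of 95 elsewhere were higher and 41 lower. The 27 had a median mock level of 9.19 CPM, nearer the filter than the 95 (22.2 CPM). Reads from the surrounding gene could be counted for such a gene, which was not tested. Of the genes inside, 14.7% were higher on the same strand as the surrounding gene and 14.4% on the opposite strand.

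The largest losses among protein-coding genes with at least 20 counts in each library were in secreted, stress-response, clock and cytoskeletal genes. VGF, a neuropeptide precursor, had 160 CPM in mock and 6.11 in knockout (-4.68, -5.03 to -4.40), 25.6-fold lower. GDF15, a secreted stress cytokine, had 1569 and 81.8 CPM (-4.26, -4.35 to -4.18). OSGIN1, an oxidative stress response gene measured through the mock library alone, had 65.4 and 4.68 CPM (-3.77). Their adjusted ratios stayed at -3.86, -3.87 and -3.03. In SKOV3 these 3 genes had ratios of -0.38, 0.18 and 0.36. By share of the library the largest losses were in ACTG1, EEF2 (the ribosome translocation factor, -1.97), HMGA1 (an AT-hook chromatin protein, -2.59), EZR, KRT8, FTH1 (the ferritin heavy chain, -1.64), ACTB and KRT19. ACTG1, cytoplasmic gamma actin, went from 0.628% to 0.115% of all counts.

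Among coding genes with at least 20 counts in each library, the 12 highest ratios lay between 3.38 and 3.71, from low mock levels. Of the 12, 8 were under 5 CPM in mock and were measured through the knockout library alone, so they had to differ. ANKRD26, an ankyrin repeat gene, had 6.15 CPM in mock and 82.1 in knockout (3.71, 3.45 to 4.05). LENG8 had 6.45 and 81.2 CPM (3.63), SEC31B, a COPII coat homologue, 3.17 and 38.0 CPM (3.53), and GSDMB, a gasdermin, 7.18 and 76.2 CPM (3.38). CCDC84 (3.46), PAQR6 (3.43), C12orf50 (3.40) and UBAP1L (3.39) were close behind. SPDYE2B, ANKRD36B, RGPD6 and NPIPB4, with ratios between 3.38 and 3.54, belong to families of near-identical copies and are uncertain. The SKOV3 ratios of ANKRD26, LENG8, SEC31B and GSDMB were 0.07, -0.33, -0.25 and -0.71.

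The circadian clock is a loop in which CLOCK and BMAL1 (ARNTL) activate period, cryptochrome and other genes through E-boxes, and the products of those genes repress the activators. Output factors such as DBP, TEF and HLF carry the rhythm to other genes. Of 23 listed genes 20 were measured, 10 were lower and 0 higher, with a median of -1.13 and an adjusted median of -1.21. Across all lists described, at most 4 members were measured through a single library. In the clock list these were HLF and BHLHE41, through mock alone, and the other 18 had a median of -0.89.

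The lowest ratios were in repressors and output factors. NR1D1, the nuclear receptor REV-ERB alpha that represses ARNTL, had 9013 counts in mock and 326 in knockout, or 549 and 22.1 CPM (-4.62, -4.80 to -4.47). PER1, a period protein, had 301 and 19.1 CPM (-3.97, -4.16 to -3.80), and PER2 had 37.0 and 10.9 CPM (-1.75). The E-box repressors BHLHE41 and BHLHE40 had 16.9 and 1.49 CPM (-3.39) and 162 and 23.0 CPM (-2.81). All of these were lower by more than 3-fold, and NR1D1 had the second lowest ratio, after VGF, among coding genes with at least 20 counts in each library.

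The output factors DBP (139 and 13.5 CPM, -3.35), HLF (16.1 and 3.53 CPM, -2.15) and TEF (39.8 and 10.6 CPM, -1.90) were lower, as was their antagonist NFIL3 (-1.53). CSNK1D, a kinase of period proteins, had -1.34. The activators differed less: CLOCK had 99.6 and 139 CPM (0.48), ARNTL 16.1 and 11.3 CPM (-0.51) and NPAS2 -0.20. PER3 (0.29), CRY1 (-0.59) and CRY2 (-0.44) were not called. In SKOV3 the list's median was -0.05, and NR1D1 had 255 CPM in mock and 259 in knockout. The time of day or time since the last medium change at harvest is not in the labels, and its part in these values was not tested.

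Because E-boxes are the element of this loop, the promoters of the clock genes were searched for it (CACGTG, which reads the same on both strands) in the 250 bases before the RefSeq start on GRCh38.p14. It stood in 4 of 18 matched clock promoters (22.2%), against 9.12% of 8985 measured coding genes. The share was 9.77% among lower coding genes. Across the other lists it ran from 0%, as in the 20S proteasome core, to 35.3% in hnRNP genes. In translation initiation factors it was 22.2%, so the clock share is not particular to this list. The 4 genes, PER1, TEF, BHLHE40 and BHLHE41, were all lower, but so were NR1D1, DBP and PER2, whose windows hold no CACGTG. The stretches below run 5′ to 3′ on the gene's strand, with the E-box in capitals.
PER1 (chr17:8152542-8152607, minus strand): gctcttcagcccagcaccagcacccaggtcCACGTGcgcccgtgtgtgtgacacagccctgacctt
TEF (chr22:41367230-41367295, plus strand): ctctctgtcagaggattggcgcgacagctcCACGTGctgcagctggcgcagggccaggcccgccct
BHLHE40 (chr3:4979187-4979227, plus strand): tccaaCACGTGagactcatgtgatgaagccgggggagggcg
BHLHE41 (chr12:26125050-26125115, minus strand): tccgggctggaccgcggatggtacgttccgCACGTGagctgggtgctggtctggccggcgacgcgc

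Kruppel-like (KLF) and SP factors bind GC-rich promoter elements, and several are immediate early genes. Of 16 measured members 9 were lower and 0 higher (median -1.10, adjusted -0.94). KLF2, which responds to flow and statins, had 260 and 32.8 CPM (-2.98, -3.13 to -2.85). KLF16 (-1.88), KLF11 (-1.79), KLF5 (-1.74), KLF10 (-1.69), KLF6 (-1.66) and KLF4 (-1.43) were lower too. KLF12 (0.94), KLF8 (0.83) and SP3 (0.50) had ratios above 0. The list's median in SKOV3 was 0.02.

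Receptors and feedback genes of the ERK pathway were lower. ERBB receptors bind EGF-like ligands and signal through RAS and ERK, and DUSP, SPRY and ERRFI1 proteins damp the signal. Of 8 measured ERBB receptors and ligands 4 were lower and 1 higher (median -1.01, adjusted -1.10). Among ligands HBEGF had 27.6 and 5.84 CPM (-2.22) and AREG, amphiregulin, 1418 and 498 CPM (-1.51, -1.55 to -1.47), while NRG4, a ligand of ERBB4, had 2.92 and 12.4 CPM (2.03) and was measured through the knockout library alone. The receptor EGFR had 89.5 and 26.7 CPM (-1.74). ERBB2 had 73.3 and 32.0 CPM (-1.19, adjusted -0.51).

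Of 16 measured feedback genes 9 were lower and 0 higher (median -1.18, adjusted -0.97). DUSP1 (61.4 and 10.5 CPM, -2.53), DUSP5 (504 and 111 CPM, -2.18) and ERRFI1, an inhibitor of EGFR (1449 and 430 CPM, -1.75), were lower, as was the ETS factor ETV5 (-2.14). DUSP6 (-0.59), SPRY2 (-0.13) and SPRY4 (0.18) were not called. In SKOV3 the feedback list had a median of -0.08 and the receptors and ligands -0.23. AREG had -0.47 there, DUSP5 -0.67 and ERRFI1 -0.63, the same direction at a smaller size. ETV5 (0.02), ERBB2 (-0.07) and EGFR (-0.18) were closer to even in SKOV3. The difference between the lines was not tested.

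Actin filaments and their linkers give epithelial cells their shape and tension, and many of their genes are targets of serum response factor, which binds the CArG box. All 36 measured members of this list passed the filter in both libraries, 18 were lower and 0 higher (median -0.97, adjusted -0.70). The motor MYH9, non-muscle myosin heavy chain, had 1239 and 118 CPM (-3.39, -3.46 to -3.32). The crosslinker FLNA was close to it, with 1103 and 120 CPM (-3.20). The focal adhesion genes ZYX (154 and 19.8 CPM, -2.96), TLN1 (-2.89) and VCL (-1.69) were lower. ACTG1 had 6232 and 1240 CPM (-2.33) and ACTB 2550 and 474 CPM (-2.43), so 2 genes widely used as references were about 5-fold lower. EZR, which links actin to the membrane, had 5682 and 2062 CPM (-1.46).

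Other members were near even or above mock. The myosin light chains MYL12A (0.62), MYL12B (0.47) and MYL6 (0.39), the capping protein CAPZA1 (0.36), ARPC2 (0.38) and the tropomyosins TPM1 (-0.17), TPM3 (-0.17) and TPM4 (-0.19) were not called. ACTN4 was listed at 0 in all 4 libraries, as were PRPF8 and PSMB3, genes that most cells use, so such rows are not evidence about the gene.

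The CArG box was found in the upstream windows of 4 of 32 matched actin genes (12.5%), against 0.968% of measured coding genes. Of the 4, ACTG1, FLNA and CNN2 (-1.96) were lower and TPM4 was not. The windows of VCL, ZYX and TLN1 hold none. The box is in capitals.
ACTG1 (chr17:81512854-81512923, minus strand): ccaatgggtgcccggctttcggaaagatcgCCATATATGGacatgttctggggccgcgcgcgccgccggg
FLNA (chrX:154374689-154374758, minus strand): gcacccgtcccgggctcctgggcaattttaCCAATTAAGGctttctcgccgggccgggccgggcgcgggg
CNN2 (chr19:1026489-1026558, plus strand): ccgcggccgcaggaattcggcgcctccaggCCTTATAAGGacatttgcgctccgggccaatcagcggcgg
TPM4 (chr19:16067335-16067404, plus strand): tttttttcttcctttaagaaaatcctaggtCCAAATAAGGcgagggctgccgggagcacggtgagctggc

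**Figure D4:**
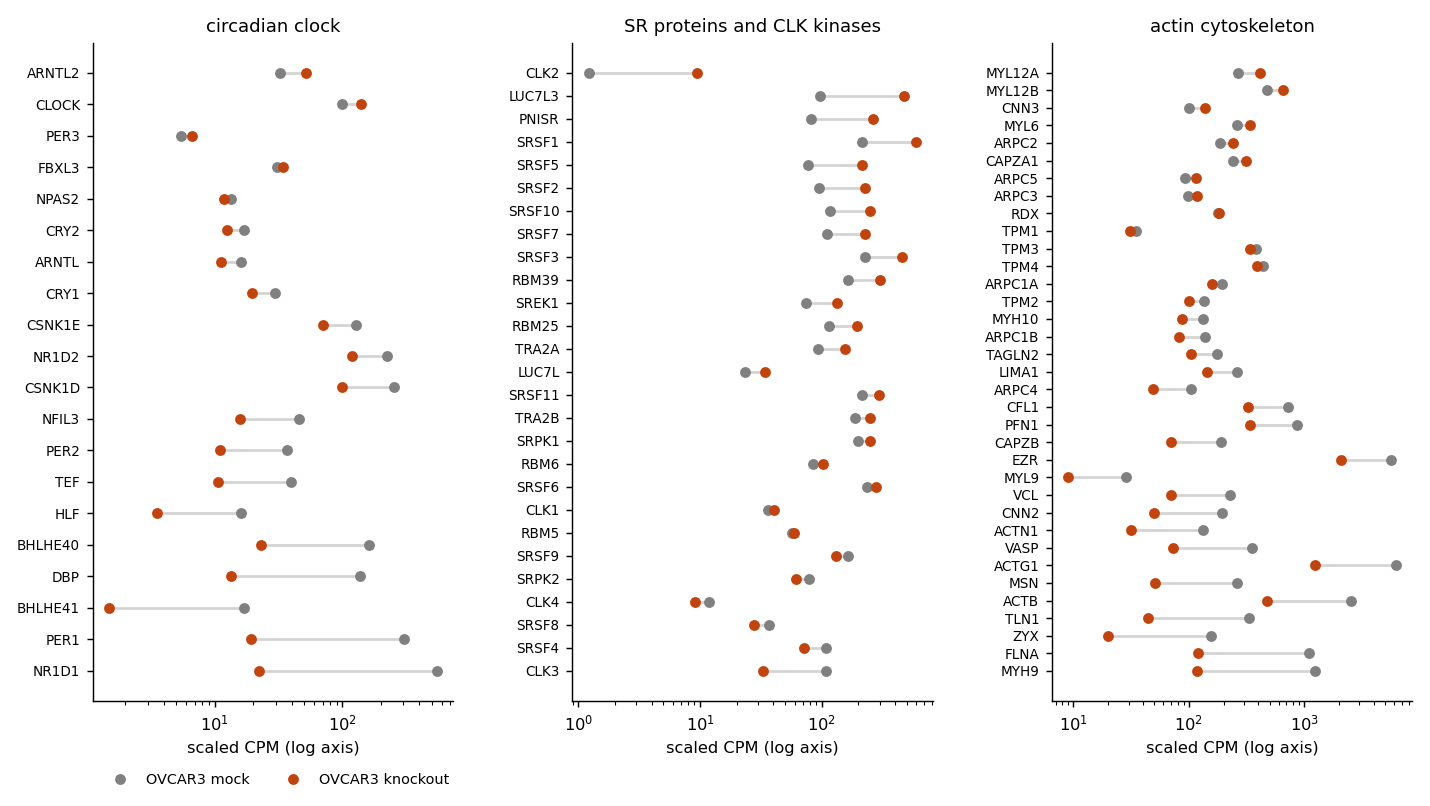
Scaled CPM (log axis) of measured members of 3 lists in the OVCAR3 mock (grey) and knockout (orange) libraries, ordered by ratio. NR1D1 goes from 549 to 22.1 CPM and MYH9 from 1239 to 118 CPM, and 21 of the 27 SR protein and kinase genes have ratios above 0, 9 of them past 2-fold.

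Tubulins, the subunits of microtubules, had a median of -1.07 (adjusted -0.77) over 12 measured genes, with 6 lower and 0 higher. TUBB2A had 25.2 and 5.23 CPM (-2.24), TUBA1C 407 and 114 CPM (-1.84), TUBA4A -1.51 and TUBB4B -1.42. TUBB2A was measured through the mock library alone, since the filter used CPM before TMM scaling. The 11 tubulins at 5 CPM in both libraries had a median of -0.83 with 5 lower. Tubulin genes share sequence, so single values are uncertain.

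Epithelial structure genes were lower as groups. Keratins form the intermediate filaments of epithelia: 8 of 20 listed were measured and 5 were lower, 0 higher (median -1.74, adjusted -1.20). The 7 keratins at 5 CPM in both libraries had a median of -1.38 with 4 lower. KRT19 had 2378 and 401 CPM (-2.57, -2.61 to -2.53), KRT8 3035 and 704 CPM (-2.11) and KRT7 a ratio of -2.31. KRT80, measured through the mock library alone, had 35.0 and 2.58 CPM (-3.70). In SKOV3 KRT80 had a ratio of 0.83 and the other 3 lay between -0.10 and 0.10. Keratins have many processed copies in the genome, and reads could be divided between them.

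Desmosomes anchor keratins at cell contacts, and 5 of their 11 measured genes were lower and 0 higher (median -0.68, adjusted -1.07). JUP, plakoglobin, had 511 and 54.4 CPM (-3.23), followed by PPL (-2.13), PKP3 (-1.99) and DSP, desmoplakin (-1.82). The desmosomal cadherins DSG2 (-0.26) and DSC2 (0.28) were not called. Of 22 measured tight and adherens junction genes 12 were lower and 0 higher (median -1.16, adjusted -0.69). Of the 22, 2 were measured through the mock library alone, and the other 20 had a median of -0.97 with 10 lower. LSR, of tricellular junctions, had 300 and 57.6 CPM (-2.38), the cadherins CDH3 and CDH1 (E-cadherin) had -2.12 and -1.87, and CLDN7 had -2.04. CTNNB1, beta-catenin (-0.26), CLDN3 (0.22) and CXADR (0.45) were not called.

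Laminins of the basement membrane and integrins, their receptors, went in both directions. Of 20 measured genes 9 were lower and 2 higher (median -0.84, and with the trend removed -0.43, within 0.5 of the coding median). Among laminin chains LAMB3 had 268 and 14.8 CPM (-4.17, -4.38 to -3.98). LAMA3, measured through the mock library alone, had 20.4 and 4.41 CPM (-2.18). ITGB4, an integrin beta chain of hemidesmosomes, had 742 and 168 CPM (-2.14). LAMA5, the alpha chain of laminin-511, had 153 and 573 CPM (1.90, 1.84 to 1.97). ITGB8 had 2.98 and 9.43 CPM (1.62) and was measured through the knockout library alone, so it had to differ. ITGB1, the common beta chain, was nearly even at 0.15.

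Glycolysis turns glucose into pyruvate. All 22 glycolysis genes were measured in both libraries, 12 were lower and 0 higher (median -1.16, adjusted -0.66). The entry and control steps had the lowest ratios: PFKP, phosphofructokinase, had 476 and 77.8 CPM (-2.61), HK2 118 and 23.1 CPM (-2.34), HK1 162 and 37.4 CPM (-2.11) and PKM, pyruvate kinase, 2045 and 346 CPM (-2.56, -2.60 to -2.52). The glucose transporter SLC2A1 had -1.80. PGK1 (-0.08) and LDHA (-0.01) were even, and LDHB had 987 and 1797 CPM (0.86). In SKOV3 the median was -0.21.

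In the pentose phosphate pathway 4 of 7 genes were lower and 1 was higher. TKT, transketolase, had a ratio of -1.76, PGD -1.14, PGLS -1.03 and RPE 1.06. The adjusted median of -0.50 was within 0.5 of the coding median. Of 17 fatty acid synthesis genes 7 were lower and 0 higher (median -0.61, adjusted -0.43, within 0.5 of the coding median). Of the 17, 1 was measured through the mock library alone, and the other 16 had a median of -0.56 with 6 lower. FASN, fatty acid synthase, had 1135 and 120 CPM (-3.24, -3.32 to -3.17), ACLY, which makes cytosolic acetyl-CoA, -1.85, ME1, malic enzyme, -1.79 and SCD, the stearoyl-CoA desaturase, -1.71. Cholesterol synthesis (23 measured, 8 lower, 1 higher, median -0.37) and amino acid transporters (21 measured, 9 lower, 2 higher, -0.56) stayed within 0.5 of the coding median. Of the 21 transporters 4 were measured through the mock library alone, so they had to differ. The other 17 had a median of -0.37, with 6 lower and 2 higher. Among the transporters SLC7A5, which imports large neutral amino acids, had 1279 and 136 CPM (-3.23), and SLC1A1, a glutamate transporter, had 1.10.

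Splicing genes separated by kind. SR proteins bind exons and promote splice site choice, and CLK and SRPK kinases phosphorylate them. All 27 listed genes were measured, 9 were higher and 1 lower (median 0.55). With the trend removed the median was 0.29, within 0.5 of the coding median. SRSF1 had 216 and 601 CPM (1.48, 1.42 to 1.54), and SRSF5 (1.47), SRSF2 (1.25), SRSF10 (1.09) and SRSF7 (1.04) were higher, SRSF3 reached 1.00, and SRSF4 (-0.58), SRSF8 (-0.42) and SRSF9 (-0.31) were not called. LUC7L3, a U1-associated factor, had 96.1 and 471 CPM (2.29), and PNISR, a serine and arginine rich protein, 82.0 and 264 CPM (1.69). CLK2 had 20 and 139 counts (2.83, measured through the knockout library alone), while CLK3 had 108 and 32.8 CPM (-1.72). HNRNPH1, an hnRNP splicing factor, had 26.4 and 198 CPM (2.90, 2.76 to 3.06) among hnRNP genes of which 6 of 18 were lower, such as PTBP1 (573 and 117 CPM, -2.29).

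In the spliceosome core 12 of 29 genes were lower and 2 higher (median -0.18). The SF3 subunits of the U2 particle SF3A1 (247 and 31.2 CPM, -2.98), SF3B2 (-2.56), SF3B4 (-2.40) and SF3A2 (-1.96) were lower, and SF3B1 (0.33) and SF3A3 (-0.04) were not. The small Sm proteins SNRPG (1.14) and SNRPE (1.12) were higher, with adjusted ratios of 0.23 and 0.66. The 20S proteasome core, 13 of 14 genes measured, had 1 higher and 0 lower (PSMA4, 1.03) and a median of 0.42, which was 0.09 with the trend removed.

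Rows with the symbol roots of ribosomal protein genes lay above the coding median, mostly by less than 2-fold. Of 48 measured rows whose symbols begin with RPL 4 were higher and 0 lower (median 0.66, adjusted 0.62), and of 39 that begin with RPS 2 were higher and 1 lower (0.58, adjusted 0.37). Rows were grouped by the letters before the first digit, so these groups can hold other genes, such as kinases with RPS6K symbols. Which rows are ribosomal proteins was not separated. Processed copies of ribosomal protein genes could share reads. Of 321 ZNF genes, zinc finger factors, 64 were higher (19.9%) and 38 lower (11.8%), against 8.45% and 19.5% of coding genes. Their median was 0.37, and 0.31 with the trend removed, with 47 then higher and 16 lower. Their median mock level was 15.3 CPM, against 36.5 for coding genes, and 24.2% of the lowest of 10 groups by level were higher. How many ZNF genes were measured through the knockout library alone was not counted. Cytosolic aminoacyl-tRNA synthetases, which charge tRNAs, had 7 of 19 lower and 0 higher (median -0.49, adjusted -0.60), among them AARS with 740 and 101 CPM (-2.87), while RARS had 0.29. Among retroelement silencing genes TRIM28, the KAP1 corepressor, had 623 and 104 CPM (-2.59), HELLS, a chromatin remodeller, had 82.5 and 210 CPM (1.35), and the median over 19 was -0.36.

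Chaperones did not move as one group. HSPA8, the constitutive HSP70, had 489 and 1662 CPM (1.77, 1.73 to 1.80), and HSPE1 and DNAJA1 had 1.43 and 1.16. BAG3, an HSP70 partner, had 102 and 18.1 CPM (-2.49) and HSPB1, a small heat shock protein, -1.78. HSP90AA1 (0.67) and HSP90AB1 (-1.17) went apart. In the endoplasmic reticulum HSPA5, the chaperone BiP, had 1858 and 407 CPM (-2.19), and 5 of 20 listed genes were lower.

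Lysosomal genes had 13 of 31 lower and 1 higher, with a median of -0.59 that lay just within 0.5 of the coding median. CTSD, cathepsin D, had 149 and 25.9 CPM (-2.52), LAMP1, a membrane glycoprotein, -2.38, and NPC2, a cholesterol carrier, 48.2 and 97.7 CPM (1.02). Many lysosomal promoters hold an E-box bound by TFEB and its relatives. CACGTG stood in 7 of 20 matched lysosomal promoters (35.0%), and 5 of these 7 genes were lower, LAMP1, CTSD, CTSA, ATP6V0D1 and MCOLN1, with ATP6V0B at -0.74 and ATP6V1G1 at 0.59. The share was as high in a list not chosen for the element, the hnRNP genes, at 6 of 17 promoters (35.3%). The window of LAMP1 holds 5 E-boxes, between 28 and 192 bases before the start, too far apart to print in 1 stretch. The 2 lower genes whose stretch shows a pair of E-boxes are printed, CTSA (a carboxypeptidase, -1.60) and MCOLN1 (a calcium channel, -1.46).
CTSA (chr20:45891263-45891334, plus strand): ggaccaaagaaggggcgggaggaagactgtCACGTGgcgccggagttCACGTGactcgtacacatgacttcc
MCOLN1 (chr19:7522553-7522623, plus strand): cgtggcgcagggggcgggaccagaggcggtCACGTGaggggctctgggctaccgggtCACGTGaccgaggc

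**Figure D5:**
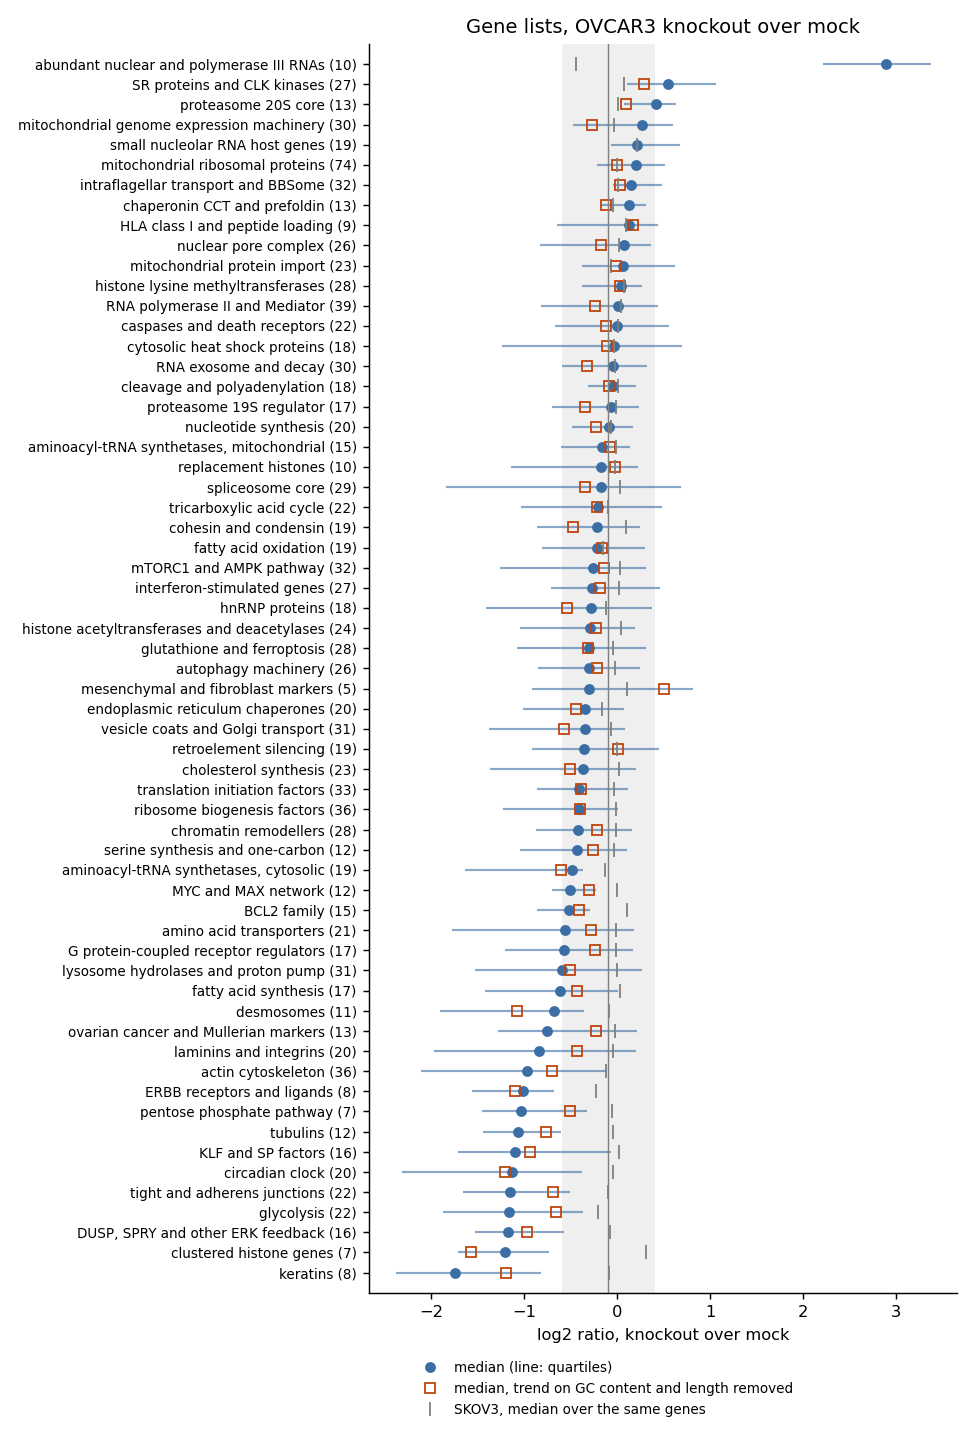
Median log2 ratio (knockout over mock) of each gene list with at least 5 measured members, with quartiles, the median after the trend was removed and the SKOV3 median over the same genes. The band spans 0.5 on each side of the coding median; keratins (-1.74), the clock (-1.13) and glycolysis (-1.16) lie below it and the nuclear RNAs (2.89) far above.

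Clustered histone genes were mostly unmeasured, with 7 of 56 at 5 CPM. Of the 7, 5 were lower and 0 higher, HIST1H1C (31.2 and 9.23 CPM, -1.74) and HIST1H1E (-1.68) among them, and 4 of the 7 were measured through the mock library alone. The 3 at 5 CPM in both libraries had a median of -0.39 with 1 lower, within 0.5 of the coding median. The SKOV3 median of the 7 was 0.31.

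Markers were read beside the line label, and their values do not establish it. Of 24 ovarian cancer and Mullerian markers 13 were measured, 5 were lower and 2 higher (median -0.76, adjusted -0.23). WT1, SOX17, WFDC2 and PGR had 0 counts in both libraries. Since some widely used genes are also listed at 0, as given above for ACTN4, an exact 0 here and below says only how the row is listed. PAX8, a Mullerian transcription factor, had 145 and 49 counts (8.83 and 3.33 CPM) and was measured through the mock library alone. MUC16, the CA125 antigen, had 45 and 91 counts (2.74 and 6.18 CPM) and was measured through the knockout library alone. CRABP2 had 283 and 116 CPM. CLDN4 had 312 and 128 CPM, KLK6, a kallikrein, 63.8 and 11.7 CPM, and BCAM 25.3 and 67.2 CPM (1.41). Of the lists for other cell types, leukocyte, liver, erythroid and colon markers had low sums in both libraries. The endothelial, breast and luminal, and mesenchymal lists had higher sums. The ovarian and Mullerian list summed to 855 CPM in mock and 459 in knockout, where the mesenchymal sum exceeded it. The 19 leukocyte markers summed to 27.7 and 16.2 CPM, with PTPRC and CD3D at 0 counts, the 14 liver markers to 4.75 and 4.68 CPM and the 10 erythroid markers to 1.64 and 7.13 CPM, nearly all HBG2 in knockout (15 and 98 counts), with HBB at 0. The 12 colon markers summed to 13.8 and 6.38 CPM with CDX1 at 0 and CDX2 at 12.4 and 5.09 CPM, and the 10 breast and luminal markers to 125 and 89.3 CPM, mostly XBP1. The 14 endothelial markers summed to 123 and 70.3 CPM, mostly EGFL7, with CDH5 at 0 and 1 counts, and the 23 mesenchymal markers to 489 and 569 CPM, with S100A4, COL6A1 and COL6A2 the most abundant, COL3A1 at 0 and VIM at 18 and 14 counts.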

How the data were processed

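The deposited files held raw counts of reads per gene symbol in 4 libraries. The submitters' processing notes name TopHat and GRCh38, without a version of TopHat. How reads were counted, with which annotation and whether by strand, is not given in the sources used here. Per the labels' protocols libraries were made from total RNA with the NEBNext Ultra II Directional kit. Repeated symbols were summed. Effective library sizes came from TMM (edgeR 4.0.16, R 4.3.3) over the 13670 genes that reached 1 CPM in 2 or more libraries. TMM without this filter was computed first, and the filtered set of the earlier analysis was then taken as the main scaling. Gene classes and positions came from RefSeq (GRCh38.p14), and GC content and length from the longest GENCODE 29 transcript; 129 measured symbols had no match, and 16 renamed symbols were matched by hand. The trend was fitted with natural splines of 5 degrees of freedom (patsy 1.0.2). Promoter windows of RefSeq were found for 82.8% of measured coding genes, and the motifs and stretches printed were chosen with values known.

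The members and the 67 gene lists were chosen with earlier results of these data known. A list was described as higher or lower where its median lay at least 0.5 from that of measured protein-coding genes. Named genes were the 12 highest and 12 lowest coding genes with at least 20 counts in each library, the 8 largest gains and losses of share, up to 4 members of a described list with up to 2 in the other direction, the highest and lowest member of other lists, the 6 most abundant long non-coding genes and the 3 highest genes at 0 in 1 library; further members were named after their values were seen. Some genes these rules select are not reported here. With 1 library per group no test was made. Intervals are exact (Clopper-Pearson), cover counting error only, and reads carried no molecular identifiers. The calculations were tested on simulated data.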

Additional observations from a re-analysis of the deposited data

Results flagged for a closer look

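For 2 gene lists described as higher or lower in OVCAR3 the SKOV3 median over the same genes had the opposite sign. With 1 library per group this difference was not tested. The abundant nuclear and polymerase III RNAs had a median log2 ratio of 2.89 in OVCAR3 and -0.44 in SKOV3 over the same 10 genes, a difference of 3.34. The 7 measured clustered histone genes had -1.20 in OVCAR3 and 0.31 in SKOV3, a difference of -1.52. Of the 7, 4 reached 5 CPM in the OVCAR3 mock library alone, and the OVCAR3 median of the other 3 was -0.39. Of the 10 nuclear RNAs 3 reached it in the OVCAR3 knockout library alone, and the OVCAR3 median of the other 7 was 2.93.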

How the results depend on the processing

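No paired analysis was possible because each group held 1 library, and for the same reason no replicate could be left out. The median log2 ratio over measured genes and over protein-coding genes was -0.16 and -0.21 with plain library size, 0.11 and 0.056 with library size without mitochondrially encoded rows, -0.34 and -0.39 with TMM over all symbols without a filter (an alternative added after seeing the data), and 0.48 and 0.078 without a filter on low counts. With CPM of at least 1 the first was 0.15. Genes called higher numbered 8048 without a filter, 3380 with CPM of at least 1 and 586 with CPM of at least 20. Higher and lower genes numbered 2650 and 3507 at 1.5-fold, 673 and 848 at 3-fold, and 848 and 1167 with the trend on GC content and length removed. With the trend on GC content alone removed 1263 were lower. Higher genes made up 74.9% of calls without a filter, 58.6% with CPM of at least 1 and 24.6% with CPM of at least 20. Other scalings, prior counts of 0.5 and 5, the interval rule and leaving out the mitochondrially encoded rows kept both counts within 1.5 times. Read against the protein-coding median, no list or class changed direction. Over all settings 8 values from 6 lists came within 0.5 of it, 6 of these values with the trend removed. Of the named genes past 2-fold POLR2K changed sign, from 1.08 to -0.10, with the trend removed. RARS (0.29 to -0.14), EIF3E (0.57 to -0.09) and PSMA3 (0.80 to -0.15), which were not called, changed sign too. The cause of these changes was not tested. Depth limits genes under 5 CPM, and 1 library per group limits every value.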
